A study of Mus musculus with 19 samples.

Results

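Single whole early blastocysts of the mouse were profiled by RNA sequencing, and the 11 wild-type (Upf2 +/+) embryos of the 19 in the series are described here, with the question of how much one embryo differs from another of the same genotype and stage. Upf2 encodes a factor of nonsense-mediated RNA decay, and the other 8 embryos, which lack it, enter no fit or value below. The embryos came from crosses between Upf2-heterozygous mice on a C57BL/6 background, whose deleted allele was made with a Cre transgene under the E2a promoter, so the mothers of these wild-type embryos carried a deleted copy. Zygotes came from superovulated females of 4 to 8 weeks, grew in M16 medium in groups, and were taken at E3.25, 90 to 94 h after human chorionic gonadotropin. Each library is 1 embryo, genotyped by PCR on its own cDNA, and the labels tie no embryo to a litter, a sex or a culture drop. P-values therefore measure the spread between these embryos. Biological and technical differences cannot be told apart in that spread, because the counts used here hold no spike-in RNAs.

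An early blastocyst has an outer epithelium, the trophectoderm, that pumps fluid into a cavity, and an inner cell mass in which epiblast and primitive endoderm precursors begin to separate. NANOG marks the first of these and GATA6 the second, and FGF4 from epiblast precursors drives the choice. A whole-embryo library averages all of these cells, so fewer cells of a type and less RNA per cell cannot be told apart.

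Total counts per embryo ran from 4056072 to 5854659, with a median of 5008508, and 14522 to 17084 genes had at least 1 read. At least 10 counts in at least 3 embryos were found for 13393 genes, which are the genes tested, and 8362 of them reached 10 counts in all 11 embryos. Another 2786 genes reached 10 counts in only 1 or 2 embryos. Levels below are counts per 1000000 (CPM) on library sizes scaled by the TMM method. Spearman's rho between 2 embryos over the tested genes lay between 0.855 and 0.961 (median 0.912, 55 pairs). Embryo 5 stood apart with the fewest detected genes, 14522, and a median rho of 0.881 to the others. In this embryo 413 of the 7671 genes of at least 20 CPM in the median embryo were under 0.1 times the others' level, against 0 to 46 in each of the other embryos. Embryos 2 and 4 stood apart in genes of the 2-cell stage and embryo 6 in a group of GC-rich genes, both described below.

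The labelled tissue was checked against its markers. Summed levels of 19 trophectoderm genes ran from 1480 to 2970 CPM, those of 15 epiblast and naive pluripotency genes from 1390 to 2000 CPM and those of 23 primitive endoderm genes from 1480 to 2140 CPM. Dab2, which the authors counted among trophectoderm markers, gave 545 to 801 CPM of the last sum. That sum therefore does not measure primitive endoderm alone. Genes of cells that could be carried along were near 0: 15 cumulus and granulosa genes summed to 0.189 to 4.56 CPM, 8 blood cell genes to 0 to 3.8 CPM and 7 sperm genes to 0.217 to 4.83 CPM. Upf2 itself lay between 37.1 and 86.2 CPM (median 55.6), and its variation did not pass either test against the trend described next.

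Promoter sequences are shown for genes whose levels moved most between embryos in 2 of the programmes described below. Sequences are those of RefSeq on GRCm38.p6, from 250 bases before to 50 bases after the start of transcription, read on the gene's strand. The first set is the 4 stress response genes that varied most for their level, Asns (chr6:7693160-7693459, reverse strand), Trib3 (chr2:152344011-152344310, reverse strand), Chac1 (chr2:119350992-119351291, forward strand) and Herpud1 (chr8:94386179-94386478, forward strand). Capitals mark the letters TGATGNAA on either strand, a sequence bound by ATF4 with a C/EBP partner, and this motif was chosen after the values were seen.
Asns: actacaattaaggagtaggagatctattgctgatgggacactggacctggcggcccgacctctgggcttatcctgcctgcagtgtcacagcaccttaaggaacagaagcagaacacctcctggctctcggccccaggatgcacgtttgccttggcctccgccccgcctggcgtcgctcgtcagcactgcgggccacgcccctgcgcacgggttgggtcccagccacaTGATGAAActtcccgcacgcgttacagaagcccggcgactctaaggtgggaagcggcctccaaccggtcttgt
Trib3: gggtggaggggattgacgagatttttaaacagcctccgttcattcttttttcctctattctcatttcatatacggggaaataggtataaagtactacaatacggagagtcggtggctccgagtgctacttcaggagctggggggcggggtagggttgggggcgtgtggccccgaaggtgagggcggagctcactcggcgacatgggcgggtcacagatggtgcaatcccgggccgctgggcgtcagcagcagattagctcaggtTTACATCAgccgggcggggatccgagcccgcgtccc
Chac1: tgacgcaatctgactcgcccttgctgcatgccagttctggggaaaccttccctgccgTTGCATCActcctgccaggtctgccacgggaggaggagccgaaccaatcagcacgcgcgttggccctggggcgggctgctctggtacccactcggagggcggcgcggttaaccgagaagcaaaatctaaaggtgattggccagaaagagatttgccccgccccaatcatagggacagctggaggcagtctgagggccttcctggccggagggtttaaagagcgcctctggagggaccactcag
Herpud1: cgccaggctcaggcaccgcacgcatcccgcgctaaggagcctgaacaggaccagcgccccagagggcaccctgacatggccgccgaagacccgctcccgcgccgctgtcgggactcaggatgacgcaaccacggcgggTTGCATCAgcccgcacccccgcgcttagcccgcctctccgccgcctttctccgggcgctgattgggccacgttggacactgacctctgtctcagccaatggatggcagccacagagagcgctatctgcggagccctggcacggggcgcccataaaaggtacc
All 4 windows hold these letters, as do 5 of the 17 other listed stress response genes with a promoter in the table (Nupr1, Vldlr and the untested Atf3, Fgf21 and Slc7a11), and at least 1 promoter of 4.51% of all 27025 genes. Of all 32851 promoters of this length 3.97% hold them. The second set is a pair of copies of the Zscan4 gene. Reads of such copies may be split between them, but these windows lie mostly before the start of transcription. The transcripts of the copies were not compared. Zscan4c lies at chr7:11005495-11005794, forward strand, and Zscan4d at chr7:11166099-11166398, reverse strand.
Zscan4c: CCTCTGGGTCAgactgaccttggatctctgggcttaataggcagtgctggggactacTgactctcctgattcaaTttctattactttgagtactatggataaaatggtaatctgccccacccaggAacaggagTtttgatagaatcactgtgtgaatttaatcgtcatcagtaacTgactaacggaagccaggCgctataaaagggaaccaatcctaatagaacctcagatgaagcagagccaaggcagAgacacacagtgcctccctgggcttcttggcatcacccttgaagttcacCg
Zscan4d: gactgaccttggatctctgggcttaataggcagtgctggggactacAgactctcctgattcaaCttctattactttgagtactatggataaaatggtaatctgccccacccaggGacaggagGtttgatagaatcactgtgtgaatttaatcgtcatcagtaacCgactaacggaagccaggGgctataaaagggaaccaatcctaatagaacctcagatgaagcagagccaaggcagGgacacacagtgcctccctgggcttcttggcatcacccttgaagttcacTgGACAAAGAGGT
Capitals mark bases that differ between the copies or that overhang at the ends. The alignment held 281 identical positions of 311, or 90.4%, with 8 substitutions and 22 overhanging bases.

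Nearly every expressed gene varied more between embryos than counting reads alone would give. By a chi-square test against Poisson counting noise, 13068 of the 13393 genes (97.6%) passed at a Benjamini-Hochberg adjusted p of 0.05. After counting noise was taken off, the median coefficient of variation (CV) was 40%. It fell steadily with level, from a median of 104% in the sixth of genes with the lowest means (0.654 to 3.67 CPM) to 15.3% in the sixth with the highest (156 to 839 CPM). Because of that dependence, each gene was also set against the trend of dispersion with level fitted by edgeR. Above the trend were 719 genes (5.37%) and below it 1875 genes (14%).

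**Figure D1:**
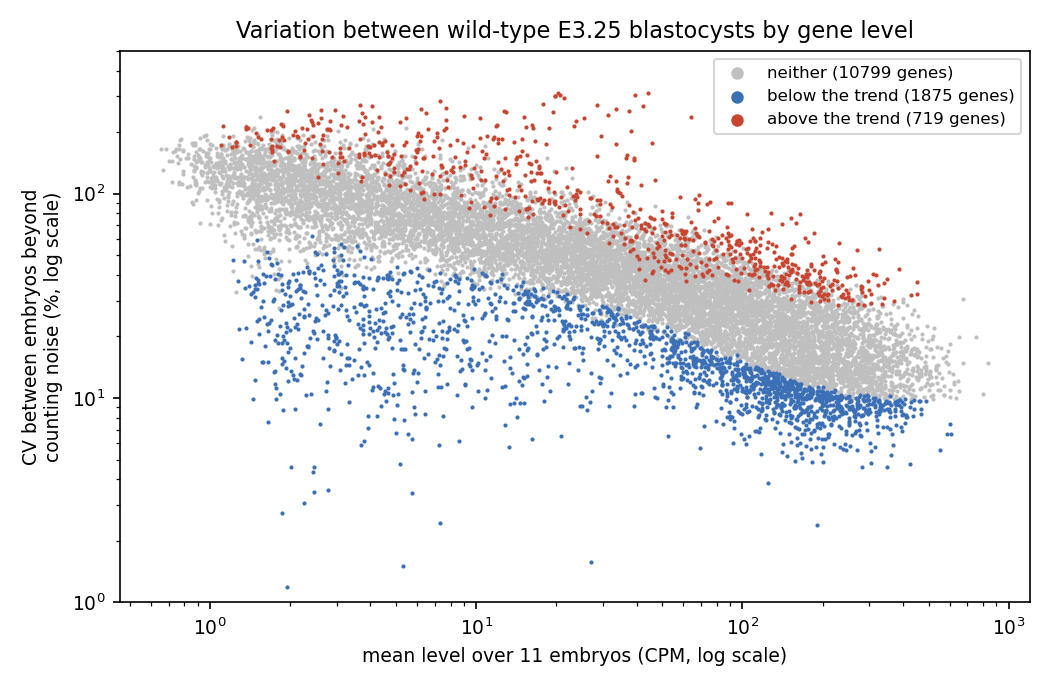
Each point is a tested gene, with its mean CPM over 11 embryos on the x axis and its CV beyond counting noise, in percent, on the y axis, both on log scales. Genes above the trend are red (719), below it blue (1875) and others grey, and 95 genes with a CV under 1% are not drawn. The cloud slopes down from a median of 104% to 15.3%.

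Eif5, a translation initiation factor, had the highest mean, 839 ± 125 CPM (SD, n = 11), followed by Hsp90ab1, a cytosolic chaperone, at 797 ± 84.5 and Gpd1l at 756 ± 150. Cul5, the scaffold of a ubiquitin ligase, ranged from 472 to 1163 CPM and was highest in embryo 2. Per kilobase of exon, the highest included Hprt, a purine salvage enzyme (456 ± 64.8 CPM), mt-Cytb of the mitochondrial genome (403 ± 53.7 CPM) and Dppa3, a maternal factor that protects DNA methylation (289 ± 36.3 CPM). Counts of the processed pseudogenes Gm12617 and Gm5612, also in that set, may be shared with their parent genes. PCR duplicates had been removed before counting. The 100 highest genes of an embryo took 5.09% to 6.21% of its counts, and no gene exceeded 4752 counts. How far the removal shaped this ranking, or the CV of abundant genes, was not tested.

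Genes of the 2-cell stage led the variable genes. These transcripts normally mark the major wave of genome activation and fall before the blastocyst forms. Of 25 such genes listed, 23 are in the table and 11 passed the filter on low counts. These 11 varied above the trend (5.37% of all genes did), a description only, since without embryos 2 and 4 the filter passed 6. Zscan4d, a zinc finger gene at chromosome 7, 11161374 to 11166159, had 0 CPM in the lowest embryo, 1.7 in the median and 402 in the highest, which was embryo 2, and embryo 4 was second at 20.6 CPM. Usp17lb, a deubiquitinase gene, had 491 CPM in embryo 2 and 188 in embryo 4, against 0 to 4.42 in the other 9. Zscan4c had 198 CPM in embryo 2 and 7.06 in embryo 4. Summed over the 23 list genes in the table, embryo 2 had 3550 CPM, embryo 4 had 1010, embryo 11 had 277 and the other 8 had 59 to 137. The genes with the lowest p above the trend, Usp17lb, Gm13078, Gm13119 and Zscan4d, were all highest in embryo 2, and Pramef25 (315 CPM), BC080695 (290 CPM) and B020004J07Rik (250 CPM) peaked there too. Without embryos 2 and 4, 0 of those 6 lay above the trend by edgeR (2 at an unadjusted p under 0.05). Sp110 and Tmem92 lay above it again when embryo 5 was left out as well.

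Embryos 2, 4 and 11 were low in most trophectoderm genes. Of the 18 tested, 14 lay under their own median in all 3 embryos, 2 in a pair of them and 2 in 1, a count made after the values were seen. The same count was not made over all tested genes, so whether this list stands out from them is not known. Tead4, a factor upstream of the lineage, went the other way in embryos 4 and 11, at 170 and 190 CPM against a median of 162, as did Lgals3 in embryos 2 and 11, at 71.6 and 92 against 67.8. Of the 18 genes, 5 varied above the trend (27.8%), against 5.37% of all genes. By DESeq2, 1 lay above the trend and 1 below, with 1.75% and 24.9% of all genes. Dppa1 ran from 19.1 to 329 CPM (median 146) with embryos 4, 11 and 2 lowest. Eomes, a T-box factor of trophoblast stem cells, ran from 3.95 to 140 CPM (median 58.4), Gata3 from 69.8 to 307 CPM (median 240) and Id2 from 39.7 to 232 CPM (median 169), each lowest in embryo 4. Krt7 was lowest in embryo 2, at 11.2 CPM. Lgals4, a galectin outside the list, ran from 17.4 to 262 CPM and was likewise lowest in embryos 4, 11 and 2. Cdx2, the defining factor of the lineage, lay between 3.74 and 34.2 CPM (median 18.2), and its CV of 56.6% did not pass the test against the trend. Without embryos 2 and 4, Dppa1 alone of the list lay above the trend. When embryo 5 was left out as well, Gata2, Dppa1 and Id2 did. Embryos 2, 4 and 11 were also the 3 highest in the summed 2-cell genes, whose part in the trophectoderm values was not tested. Of the 277 CPM of that sum in embryo 11, Sp110 gave 211. Sp110 was at 39.7 to 119 CPM in the embryos other than 2, 4 and 11. Tcstv3 had 10.1 CPM in embryo 11, and Usp17lb and Zscan4d had 0.

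**Figure D2:**
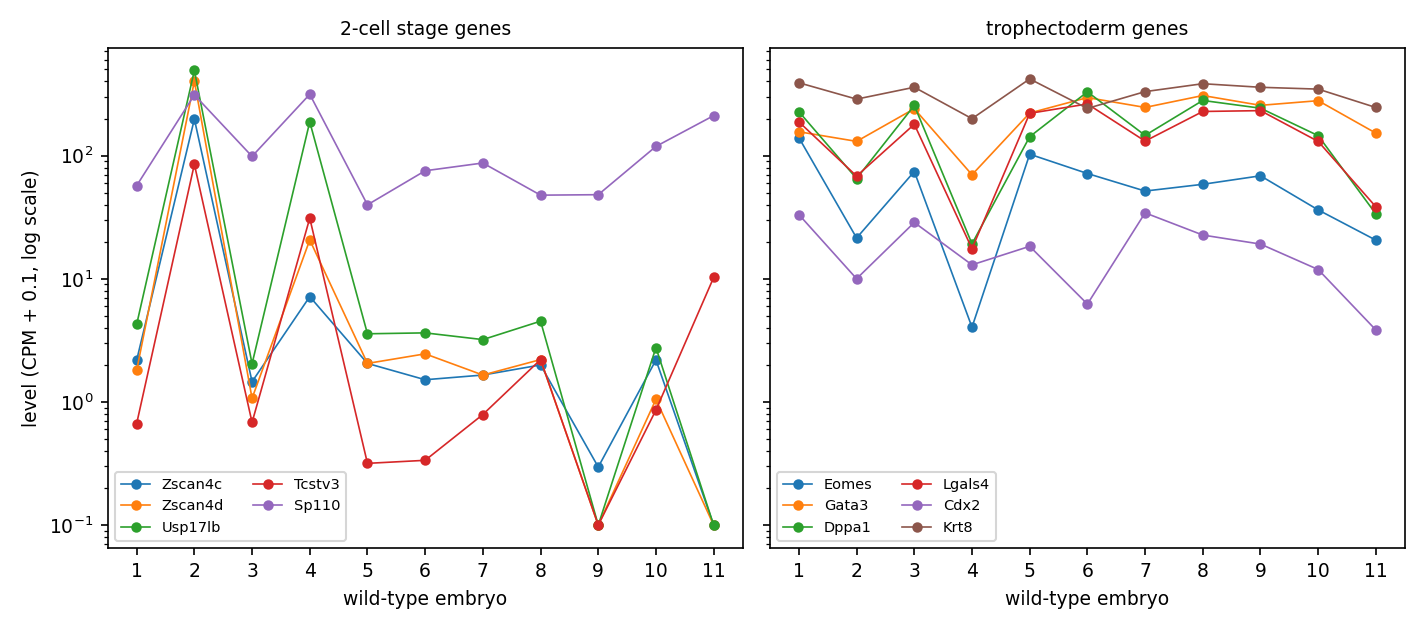
Levels (CPM plus 0.1, log scale) of 2-cell stage genes (left) and trophectoderm genes (right) in each of the 11 wild-type embryos; each line joins the embryos of 1 gene. Zscan4d reaches 402 CPM in embryo 2, and Dppa1 falls to 19.1 CPM in embryo 4.

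Nanog lay between 188 and 323 CPM (median 239, CV 18.4%). Gata6 lay between 74.3 and 196 CPM (CV 26.6%). Of 13 tested epiblast genes, Fgf4, the ligand, varied above the trend from 0.652 to 126 CPM (median 27.9, highest in embryo 11, lowest in embryo 5), and Tdgf1, a Nodal co-receptor, from 29.7 to 216 CPM. Of 21 tested primitive endoderm genes, 3 varied above the trend, against 5.37% of all genes. Pdgfra, a receptor of the lineage, ran from 0 to 58 CPM, with embryos 4, 5 and 11 under 1 CPM. Lrp2, an endocytic receptor, ran from 198 to 695 CPM, lowest in embryos 4, 5 and 11 as well. Gata4 stood at 0 CPM in 5 embryos and at 18.7 CPM in embryo 4. Without embryos 2 and 4 the calls of Tdgf1 and Gata4 were lost, and without embryos 2, 4 and 5 those of Gata4 and Lrp2. By DESeq2, 1 epiblast gene and 2 primitive endoderm genes lay above the trend, with 1.75% of all genes. Among 18 genes of the pumps and junctions that form the cavity, Cdh1 (E-cadherin, 37.4 to 427 CPM), Ocln, Cldn6 and Dsc2 varied above the trend, and Cgn below it. Cdh1 and Ocln had their lowest level in embryo 5, and without it neither was above the trend and Cgn was not below.

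The integrated stress response acts on amino acid shortage and other stress through ATF4, and 4 of its 18 tested genes varied above the trend, against 5.37% of all genes. Asns, asparagine synthetase, ran from 36.5 to 293 CPM (median 104), with embryos 1, 5 and 6 highest. Trib3, a pseudokinase, ran from 6.02 to 195 CPM and was highest in embryo 5. Chac1, which degrades glutathione, ran from 1.42 to 187 CPM, and Herpud1 from 36.7 to 286 CPM, both highest in embryo 5. Atf4 itself lay between 151 and 267 CPM (CV 17.5%), and Psat1, of serine synthesis, between 407 and 607 CPM (CV 13.1%). Without embryo 5, Trib3 no longer passed and Nupr1 did.

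**Figure D3:**
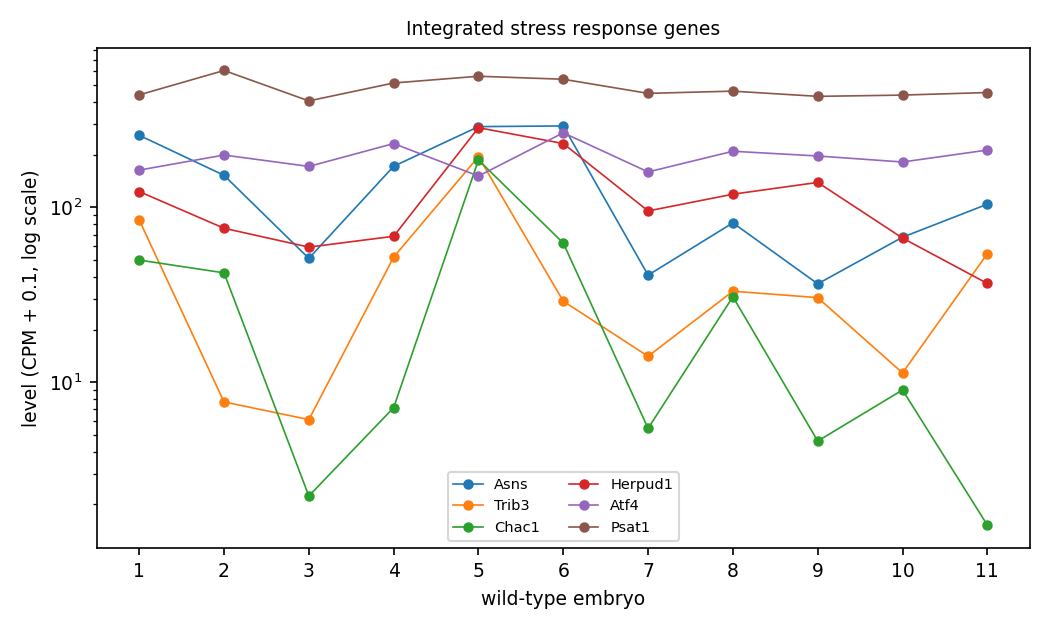
Levels (CPM plus 0.1, log scale) of 6 stress response genes in each of the 11 embryos, 1 line a gene. Chac1 spans 1.42 to 187 CPM, while Atf4 stays between 151 and 267 CPM.

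X- and Y-linked genes were a further source of difference. Of 464 tested X-linked genes 54 (11.6%) varied above the trend, against 5.37% of all genes, and of 8 Y-linked genes 4. Without embryos 2, 4 and 5 the X-linked count was 46 of 439, with 4.82% of all genes. Eif2s3y, the Y copy of a subunit of eIF2, had 2.17, 155 and 213 CPM in the lowest, median and highest embryo, and Ddx3y, an RNA helicase, 1.3, 136 and 189 CPM. Embryos 2, 5 and 10 were the low ones in both, with summed Y-linked levels of 5.08, 3.69 and 4.56 CPM against 268 to 506 in the other 8. Xist, the RNA that silences an X chromosome, was at 179 CPM in embryo 2 and 55.7 in embryo 10, but at 0.434 in embryo 5, and at 0.173 to 6.13 in the rest. X-linked genes took 3.27%, 2.89% and 3.2% of counts in embryos 2, 5 and 10 and 2.36% to 2.97% in the others. Rhox5, an X-linked homeobox gene named after its values were seen, had 116, 141, 42.2 and 120 CPM in embryos 2, 5, 6 and 10 and at most 3.59 CPM elsewhere. Magea5, X-linked too, ran from 0.208 to 156 CPM. Gm47283, annotated on Y and counted among the 8, stood at 20.4 to 28.9 CPM in all 11 embryos. Whether its reads came from the Y chromosome was not tested.

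Of the 1875 genes below the trend, 1313 were protein-coding and 429 processed pseudogenes. Of 78 ribosomal protein genes 53 varied below the trend and 0 above, against 14% of all genes, with a median CV of 11.7%. Of 34 nuclear genes of oxidative phosphorylation 18 were below and 0 above. No member of either list was above at an unadjusted p under 0.05, nor by DESeq2, which placed 68 and 24 below, with 24.9% of all genes. The counts depended on embryo 5, without which 16 and 8 were below, with 9.49% of all genes. They were 14 and 5 without embryos 2, 4 and 5, with 6.44% of all genes. Both lists also moved together, with a median pairwise r of 0.88 and 0.57 over the 11 embryos, a description that shares library and length between points. Among genes of at least 100 CPM, 388 of 3645 had a CV under 10%. The smallest was that of Guk1, guanylate kinase, at 2.4% (175 to 200 CPM), the only gene of that level not called beyond counting noise. Among the 10 smallest were also Ppp1r14b (3.84%), Rbpms2 (4.58%) and Odc1, the first enzyme of polyamine synthesis (4.75%). Of 537 tested processed pseudogenes, 429 (79.9%) varied below the trend and 8 above, and 290 of 489 were below without embryos 2, 4 and 5. Gm5835, at 10.7 to 13.7 CPM, had the lowest p. Reads of a pseudogene may belong to its parent, and how reads with several matches were counted is not given in the sources used here.

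Genes in use as qPCR references were not all steady. Of 19, 5 varied below the trend, against 14% of all genes. Without embryo 6 the count was 3, and without embryos 2, 4 and 5 it was 1, with 12.1% and 6.44% of all genes. Without embryos 2 and 4 it was 7, and by DESeq2 9, with 11.7% and 24.9% of all genes. Among the 5 were Ppia (CV 9.9%), Ywhaz (CV 8.53%) and Rpl13a (CV 9.43%). Tfrc, the transferrin receptor, varied above it from 30.6 to 376 CPM, highest in embryos 4, 2 and 11, and Gusb fell to 1.52 CPM in embryo 5 against 58 to 118 elsewhere, a call lost without that embryo. Gapdh (CV 12.1%) and Actb (CV 14.6%) passed neither test.

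The counts in the other lists stand beside 5.37% of all genes above the trend and 14% below it. With so few calls, no list here is read as departing from these shares. Of 25 mitotic genes and 8 mitochondrially encoded mRNAs, 0 passed either test by edgeR. At an unadjusted p under 0.05, 7 and 1 were below the trend and 2 and 1 above it. By DESeq2, 1 in each list lay below the trend, where 24.9% of all genes did. Of 29 S phase genes, Mcm2, Mcm3 and Chaf1a varied above the trend, each lowest in embryo 6, and Rfc2 and Chaf1b below. Without embryo 6 the calls of Mcm2, Mcm3 and Chaf1a were lost. Of 15 genes of nonsense-mediated decay and the exon junction, Smg1, a kinase, varied above it, from 5.65 to 126 CPM with embryo 5 lowest, and Magohb, Rbm8a, Eif4a3 and Casc3 below. All 5 of these calls were lost without embryo 5. Plk2 and Eda2r of 18 p53 targets varied above it and Rrm2b below. Pkm, a glycolytic enzyme, and Lss, of cholesterol synthesis, varied above it and were both lowest in embryo 6, without which neither call held. Of 16 imprinted genes, Igf2r and Sgce did so. Aldoa and Pgam1 of glycolysis and the mitochondrial chaperones Hspd1 and Hspe1 varied below it. Of 9 immediate early genes Dusp1, a phosphatase, and Klf6 varied above it, and of 12 FGF response genes Ier3 alone passed, below it. Of 13 tested oocyte transcripts Zp3, of the zona pellucida, and Tcl1 varied above it and Khdc3 below, and the list of 24 summed to 357 to 714 CPM. Further calls lost without embryo 5 were those of Chaf1b, Eda2r, Rrm2b, Lss, Igf2r, Aldoa, Zp3, Tcl1 and Khdc3, and without embryo 6 those of Rrm2b, Aldoa, Dusp1, Tcl1 and Khdc3.

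Genes above the trend fell into groups that stood apart in 1 to 3 embryos. Among the 527 such genes of at least 10 CPM, clustering gave 8 groups of at least 10 genes. A group's shape is a description, since its genes were chosen for varying. The median pairwise r within a group was 0.72 to 0.86 over the 11 embryos. Without embryos 2, 4 and 5 it was 0.05 in group 1 and 0.93 in group 2. In groups 3 to 8 it was then 0.62, 0.6, 0.38, 0.88, 0.46 and 0.75. Group 1, 156 genes led by Pigk, Gusb, Npdc1, Slc12a7 and Stau2, was low in embryo 5, where its mean fell by 4.11 on the log2 scale from the mean over embryos. Pigk had 2.17 CPM there and 97.2 to 131 elsewhere. The median exon length of its genes was 5050 bases, against 3970 in all tested genes and 4010 in the 527 genes clustered. Group 2, 82 genes led by Dapk3, Dbnl, Rrp1, Atad3a and Trip10, was low in embryo 6. Its median GC content was 55.7%, against 49.7% in all tested genes and 50.6% in the 527 genes clustered. Group 3, 55 genes led by Gm16026, Gm11544, F730035P03Rik, Tcstv3 and Sp110, was high in embryos 2, 4 and 11, by 2.36, 2.44 and 1.43. Group 4, 34 genes led by Plekhb2, Klf15, Fbxw5, Sept6 and Lgals4, was low in the same 3 embryos and holds Eomes, Gata3, Dppa1 and Id2. Groups 5 and 6 (30 and 23 genes) were low in embryos 2 and 5 and in embryos 2 and 6. Their median GC content was 55.3% and 57.3%. Group 7, 21 genes with Zscan4c, Zscan4d and Usp17lb, was high in embryo 2 by 5.72 and in embryo 4 by 2.56. It was lowest in embryo 11, at -2.44. Group 8, 19 genes with Pdgfra and Lrp2, was low in embryos 4, 5 and 11. Embryos 5, 2, 4 and 6 were the farthest from the rest for 239, 111, 110 and 109 of the 719 genes above the trend (33.2%, 15.4%, 15.3% and 15.2%). Over all 13393 tested genes these shares were 26.3%, 17.7%, 11.7% and 14.2%.

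**Figure D4:**
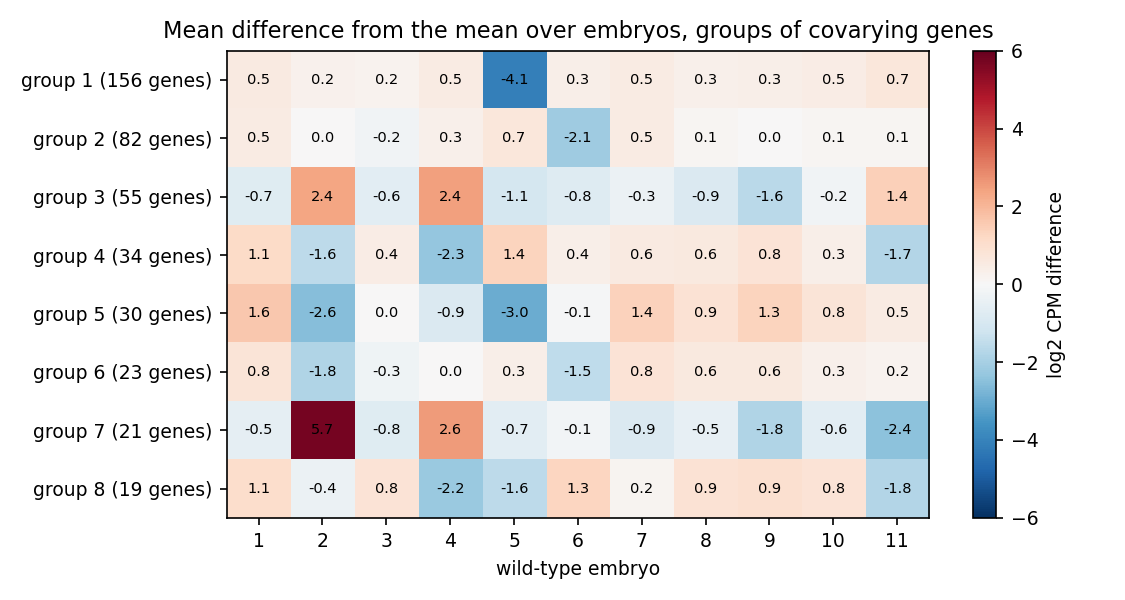
Rows are the 8 groups of genes that covaried over all 11 embryos, and columns are the wild-type embryos. Colour and number give the mean log2 CPM difference from the mean over embryos. Group 1 falls in embryo 5, group 2 in embryo 6, and group 7 rises in embryos 2 and 4.

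Of 22 gene pairs fixed from textbook knowledge, 2 were related over the 11 embryos. Krt8 and Krt18, keratin partners of the trophectoderm, had Pearson's r 0.9 (two-sided permutation p = 0.00013, adjusted over the 22 pairs 0.00143) and Spearman's rho 0.87 (permutation p = 0.00088, adjusted 0.00968), and r 0.93 without embryos 4 and 6, the 2 farthest from the median of Krt8. Ccnb1 and Cdk1, the mitotic cyclin and its kinase, had r 0.94 (permutation p = 2e-05, adjusted 0.00044) and rho 0.92 (permutation p = 0.00015, adjusted 0.0033), and r 0.85 without embryos 2 and 7. The other 20 did not pass. Nanog and Gata6, which oppose each other in single cells, had r 0.13 (permutation p = 0.694, adjusted 0.999), and Nanog and Fgf4 r -0.04 (permutation p = 0.913, adjusted 0.999). Cdkn1a and Mdm2, targets of p53, had r 0.64 (permutation p = 0.0325, adjusted 0.179), and 0.65 without embryos 4 and 5.

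**Figure D5:**
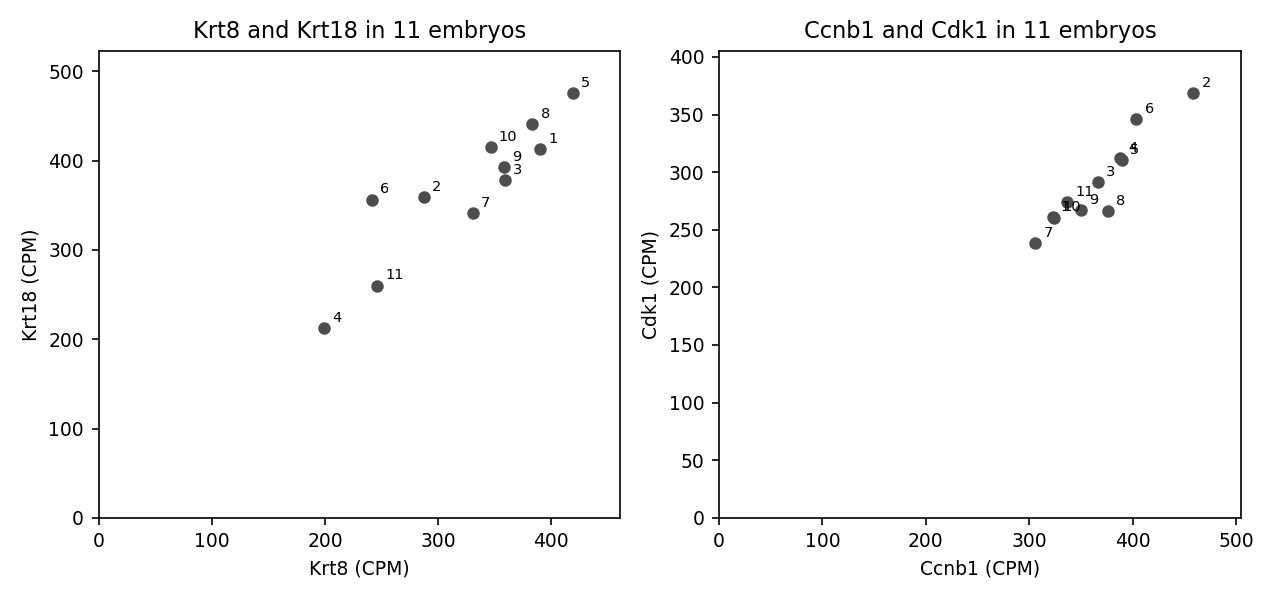
Levels (CPM) of Krt8 against Krt18 (left) and Ccnb1 against Cdk1 (right), each point 1 of 11 embryos with its number. Embryo 4 is lowest in both keratins, at 199 and 213 CPM, and embryo 2 highest in Ccnb1 and Cdk1, at 459 and 369 CPM.

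The first 3 principal components were set against measures of the library. Component 1 (27.2% of the variance) set embryo 5 apart at a score of 187 and was related to the number of genes detected (r -0.94, permutation p = 0.00527, adjusted over 9 relations 0.0237). Spearman's rho was -0.77 (permutation p = 0.00753, adjusted 0.0678), and without the 2 farthest embryos r was -0.54, so the relation rests on them. Component 3 (12.5%) was related to total count (r 0.79, permutation p = 0.00381, adjusted 0.0237, rho 0.65, adjusted permutation p = 0.165) and to the mitochondrial share (r -0.74, permutation p = 0.00972, adjusted 0.0292, rho -0.48, adjusted permutation p = 0.415). Without the 2 farthest embryos r was 0.44 and -0.73. Component 2 (17.8%), in which embryos 4, 2 and 11 had scores of -98.3, -81 and -46, passed for none of the 3 measures.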

How the data were processed

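The deposited values are raw read counts per Ensembl gene, which the authors made by trimming adapters, aligning to GRCm38 with STAR 2.5.2a, removing PCR duplicates with SAMtools and counting with featureCounts. How strand and reads with several matches were treated is not given in the sources used here. The table holds 41388 genes, of which 24924 had a count in the 11 wild-type embryos, and symbols, positions and exon lengths came from the GENCODE M21 annotation of GRCm38. A gene was tested where 3 or more embryos had 10 or more counts. Library sizes were scaled by TMM (edgeR 4.0.16). Variation beyond counting noise was tested by a Poisson chi-square and variation against the dispersion trend by edgeR's deviance on 10 degrees of freedom, both with Benjamini-Hochberg adjustment at 0.05. DESeq2 1.42.0 gave an alternative trend. In simulated counts for the 13393 genes, genes with 4 times the trend's dispersion were called above it in 59.5% of cases, and with 8 times in 88.5%, while 0.175% of genes on the trend were called above it. Correlations used log2 CPM with a prior count of 2 and 100000 permutations. Genes were grouped by average linkage on 1 minus r at a height of 0.4. The genes named are the 10 leading genes of each ranking, list members called above or below the trend, the defining members of lists, the fixed pairs, and the 5 genes nearest the mean of each of the 4 largest groups. Members and the 26 lists were chosen with earlier results of these data known. A scaled table of the same counts and an assembled transcript annotation were not used here. Some genes that the naming rule selects are not reported here.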

Additional observations from a re-analysis of the deposited data

How the results depend on the processing

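No paired analysis was possible because only 1 genotype enters the fits. The count of genes beyond counting noise was 8204 when 10 counts were asked in all 11 embryos. The count above the trend was 414 with that filter, 381 at an adjusted p of 0.01 and 235 with the trend of DESeq2, and the count below it was 1061, 779 and 3340, and 833 without embryos 2, 4 and 5. In simulated counts DESeq2 called 9.74% of genes on the trend below it. Relations of components to library measures numbered 0 by Spearman's rho, 0 without embryos 2, 4 and 5, 0 with the 500 most variable genes, and 0 to 3 leaving out 1 embryo. Without embryo 5, component 3 had r -0.24 with total count and 0.05 with the mitochondrial share, and leaving out each embryo in turn gave -0.24 to 0.83 and -0.81 to 0.05. Component 1 had r 0.05 with genes detected over the 500 most variable genes. A component's sign is arbitrary. Without embryo 5, which component 1 had set apart, a component of the same number need not be the same axis, and 2 relations still passed. Gene pairs passing numbered 0 without embryos 2, 4 and 5, where r over the 8 others was 0.79 for Krt8 with Krt18 and 0.86 for Ccnb1 with Cdk1. Pairs that had not passed changed sign as follows. Nanog with Fgf4 had 0.05 by rho, 0.6 without embryos 2, 4 and 5 and 0.21 given genes detected. Gata4 with Sox17 had -0.05 by rho and -0.17 without those embryos, and Ldha with Pgk1 0.05 without them. Col4a1 with Col4a2 had -0.01 with size factors of DESeq2 and -0.02 with a prior count of 0.5, at which Fgf4 with Dusp6 had 0.02. Given genes detected, Atf4 with Ddit3 and Lamb1 with Lamc1 had -0.09. Leaving out 1 embryo, r ran from -0.17 to 0.37 for Nanog with Fgf4, -0.18 to 0.34 for Nanog with Gata6, -0.3 to 0.08 for Nanog with Sox2, -0.04 to 0.31 for Gata4 with Sox17, -0.47 to 0.28 for Fgf4 with Dusp6, -0.35 to 0.26 for Atf4 with Ddit3, -0.2 to 0.58 for Col4a1 with Col4a2, -0.3 to 0.51 for Hmgcs1 with Idi1 and -0.41 to 0.04 for Ldha with Pgk1. Pigk turned from above to below the trend without embryo 5 (deviance per degree of freedom 0.116, or 0.0389 without embryos 2, 4 and 5, and 0.116 to 6.75 leaving out 1 embryo), as Gm5662 did without embryos 2 and 4 (0.17). Of 213 named genes called above or below the trend, 60 kept the call in every alternative that tested them. Where no value shows it, the cause was not tested.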

Other observations

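The tested genes above the trend whose levels were most like those of a lineage gene over the 11 embryos were listed for 5 such genes, as a description that shares the libraries between points. For Fgf4 they were Dpp4 (r 0.93), Kyat3 (0.89), Enpp3 (0.86), Mbd3l2 (0.85) and Sept3 (0.84), and for Dpp4 and Kyat3 r was 0.96 and 0.94 without embryos 2, 4 and 5. For Cdx2 they were Pgm1 (0.88), Stoml1 (0.82), Slc9a3r1 (0.8), Afg3l2 (0.78) and Odf2 (0.75). For Gata4 the nearest were Mylk3 and A630001G21Rik, both at 0.89, for Gata6 Sgce at 0.77 and for Nanog Magea8 at 0.74.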
